A study of Mus musculus with 6 samples.

Results

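Lilrb4a, F13a1, Plek, Arhgdib, Mpeg1, Syk, Csf1r and Ptprc are best known from blood cells, and their expression was described here in fibroblasts sorted from mouse skin as negative for CD45, the protein of Ptprc. These 8 genes, of 22180 measured by name, were chosen because their values had been seen to differ between the groups, with Ptprc as the gene set beside them, so their differences are given as a description. Each had 1 probe set annotated to it alone. In the K14-PTHrP (KrP) samples 6 of the 8 were lower, by 3.55-fold to 5.72-fold, Csf1r was 1.66-fold higher, and the arrays of the groups overlapped at a low level for Ptprc. Of the 6 genes, F13a1, Plek, Arhgdib and Syk were lower rather than lost. They stayed above a guide to background, the 95th percentile of olfactory receptor genes, on all 3 KrP arrays. Lilrb4a was above it on 1 KrP array and Mpeg1 on 0, so for these genes lower cannot be told from lost.

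The KrP group was fibroblasts from ventral skin with a nipple-like character, taken from K14 Pthrp transgenic mice. The promoter of keratin 14, a gene of basal keratinocytes, drives the hormone-related protein PTHrP there, so that the fibroblasts carry the transgene without being its intended source. The WT group was fibroblasts from the ventral skin of wild-type littermates. Both groups were female, on a C57BL/6 background and 8 to 12 weeks old, with 3 samples each and 1 array per sample. Cells were pooled and then sorted: viable CD140+ cells were kept, and cells with CD49f, CD117, CD45 or CD31 were left out. The labels name 3 mice as the source and do not say whether this is per sample, so p-values cover the spread among these arrays alone, and that spread may be technical. The descriptions of KrP samples 2 and 3 name other keratins than K14, while their source names and genotypes name K14, which was followed.

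The values are log2 expression values, on which a difference of 1 is a doubling. Array medians lay between 6.34 and 6.43. Correlations between arrays over all probe sets were 0.986 to 0.994 within groups and 0.975 to 0.989 across groups. The 1105 olfactory receptor genes measured, which skin fibroblasts are not known to use widely, gave a guide to background, with a 95th percentile of 6.28. Pdgfra (CD140a) had 13.42 to 13.54 in KrP samples and 13.13 to 13.32 in WT samples, ranges that did not overlap. All KrP arrays lay above all WT arrays for 11.4% of all genes. None of Pecam1, Kit and Itga6 passed the test (limma adjusted p = 0.917 or above). Of all 6 sort markers, with Pdgfrb (CD140b) and Ptprc, 0 passed. With the replicate number as a block 1 of the 6 passed, higher in KrP samples (16.7%, beside 8.35% of all genes). It was a gene of CD140, the marker sorted for (Pdgfra or Pdgfrb), and not Pecam1, Kit or Itga6. Pecam1 lay between 6.49 and 7.13 and Itga6 between 6.49 and 8.16 over the 6 arrays, above the guide, while Kit lay between 5.92 and 6.44. WT 2 stood apart in some keratinocyte genes, of which 4 chosen after their values were seen are given. Krt17, a keratin of skin appendages, had 5.60, 5.91 and 5.75 in KrP samples and 5.92, 9.06 and 6.10 in WT samples (log2 values), and Perp, Dsc3 and Cdh1, of cell junctions, had 7.72, 7.38 and 7.74 in WT 2 and at most 6.63 in WT 1 and WT 3. Other keratinocyte genes did not set WT 2 apart: Krt10 had 7.78, 7.82 and 7.61 and Sfn 8.87, 9.09 and 9.61 in WT samples 1 to 3. Without WT 2 the 6 lower genes had log2 differences of -2.57 to -1.49, and Csf1r of 0.83.

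White blood cells share a set of proteins for sensing, signalling and movement. Receptors at their surface pair with activating or inhibitory signals, and the tyrosine kinase SYK relays the activating ones from receptors that carry ITAM motifs. CD45 is a tyrosine phosphatase found on nearly all nucleated blood cells and is the usual marker by which they are removed from a sort. Many of their genes are switched on by the factor PU.1, which binds a purine-rich site called the PU-box.

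Promoter stretches are shown because 6 of the 8 genes were lower together, with Ptprc for comparison. Promoter windows from RefSeq (assembly GRCm38.p6, 250 bases before to 50 after a start) were at hand for 6 of the 8 genes, in 11 windows, and Lilrb4a and Csf1r had no entry. The PU-box was searched as GAGGAA on both strands, and capitals mark it. Each stretch of 60 bases ends at or before the start of transcription and reads in the direction of the gene.
F13a1 (chr13:37050278-37050337, minus strand): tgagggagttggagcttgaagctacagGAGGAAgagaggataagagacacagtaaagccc
Plek (chr11:17008747-17008806, minus strand): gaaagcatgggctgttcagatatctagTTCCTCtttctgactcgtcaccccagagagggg
Arhgdib (chr6:136939629-136939688, minus strand): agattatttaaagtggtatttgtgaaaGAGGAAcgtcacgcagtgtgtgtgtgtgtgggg
Syk (chr13:52596822-52596881, plus strand): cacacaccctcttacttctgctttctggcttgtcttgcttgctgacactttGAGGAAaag
Ptprc (chr1:138175431-138175490, minus strand): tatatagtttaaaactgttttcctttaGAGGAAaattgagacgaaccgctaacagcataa

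The match lay on the strand of the gene in F13a1, Arhgdib, Syk and Ptprc and on the opposite strand in Plek, where it reads TTCCTC. It began 66 bases before the start in F13a1, 61 in Plek, 134 in Arhgdib, 9 in Syk and 158 in Ptprc. F13a1 had further matches after the start, beginning at transcribed base 18 in the same window and 15 in its other window. Counting any window, 5 of the 6 genes held the letters, and Mpeg1 did not. Among all 27025 genes with a window, 31.3% held them, but those genes had 32851 windows, fewer per gene than the 11 of these 6. By window, 6 of the 11 held the letters, beside 28.3% of all windows. RUNX letters (TGTGGT) were found in Arhgdib alone, beside 18.9% of all genes. AP-1 letters (TGANTCA, 8.97% of genes) and C/EBP letters (TTGCNNAA, 12.2%), on both strands, were found in none of the 6. A match is a run of letters and not a measured binding site.

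Of the receptors, Lilrb4a had the widest difference. It encodes an inhibitory receptor of the leukocyte immunoglobulin-like family, known from myeloid and mast cells. Its log2 values were 5.59, 6.76 and 5.32 in KrP samples 1 to 3 and 8.46, 8.82 and 7.94 in WT samples 1 to 3. The groups did not overlap, and KrP 2 was the one KrP array above the background guide. The mean was 5.89 ± 0.77 in KrP samples and 8.41 ± 0.44 in WT samples (SD, n = 3 each), a log2 difference of -2.52 ± 0.37 (SE), or 5.72-fold lower. Since 2 KrP arrays lay under the guide, where differences are compressed, the fold may be understated. Lilrb4a was also the gene of the 8 that varied most between KrP arrays.

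Csf1r went the other way. It encodes the receptor for the growth factors CSF1 and IL-34, on which macrophages depend. Its log2 values were 7.91, 7.86 and 7.99 in KrP samples and 7.01, 7.39 and 7.17 in WT samples. All KrP arrays were above all WT arrays, with a gap of 0.47 between the nearest, and all 6 lay above the guide. The mean was 7.92 ± 0.07 in KrP samples and 7.19 ± 0.19 in WT samples (SD, n = 3 each), a log2 difference of 0.73 ± 0.13 (SE).

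Ptprc was low throughout. Log2 values of 4.44, 4.99 and 4.51 in KrP samples and of 4.56, 5.15 and 4.83 in WT samples were all below the guide and overlapped. Its log2 difference was -0.20 ± 0.19 (SE), at levels where differences are compressed.

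Inside the cell, Syk differed most between the WT arrays. The arrays gave log2 values of 6.57, 6.78 and 6.47 in KrP samples and 7.96, 9.10 and 8.24 in WT samples. The groups were 1.18 apart at their nearest, although WT 2, the array with some raised keratinocyte genes, stood above the other WT arrays. The part of keratinocytes in that value was not tested. The mean was 6.61 ± 0.16 in KrP samples and 8.43 ± 0.59 in WT samples (SD, n = 3 each), a log2 difference of -1.83 ± 0.27 (SE), or 3.55-fold lower.

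Plek encodes pleckstrin, the major substrate of protein kinase C in platelets. It had log2 values of 7.14, 7.68 and 7.15 in KrP samples and 10.11, 9.41 and 9.66 in WT samples. The groups were 1.73 apart, and KrP 2 and WT 2 were the arrays nearest to each other. The difference was -2.40 ± 0.22 on the log2 scale (SE), 5.29-fold lower in KrP samples.

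Arhgdib encodes a GDP-dissociation inhibitor that is abundant in blood cells. It had 7.86, 7.64 and 7.95 in KrP samples and 10.23, 9.83 and 10.03 in WT samples (log2 values). This was the tightest of the 6 lower genes, with a log2 difference of -2.21 ± 0.15 (SE), or 4.64-fold lower. All 6 arrays lay above the guide, so the gene was still measurable in KrP samples.

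The remaining members act outside the signalling machinery. F13a1 encodes the catalytic subunit of clotting factor XIII, a transglutaminase that crosslinks fibrin and is made by macrophages and megakaryocytes. Its log2 values were 6.46, 7.06 and 6.99 in KrP samples and 9.34, 9.23 and 9.48 in WT samples. With 2.17 between the nearest arrays it had the widest gap of the 8 genes, and its log2 difference was -2.51 ± 0.18 (SE), or 5.71-fold lower.

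Mpeg1 encodes perforin-2, a pore-forming protein of macrophages that attacks engulfed bacteria. It had log2 values of 6.26, 6.05 and 5.49 in KrP samples and 8.26, 7.88 and 7.73 in WT samples. Every KrP array lay under the guide and every WT array above it. The difference was -2.02 ± 0.22 (SE) on the log2 scale, 4.06-fold lower, again with KrP values where differences are compressed.

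**Figure D1:**
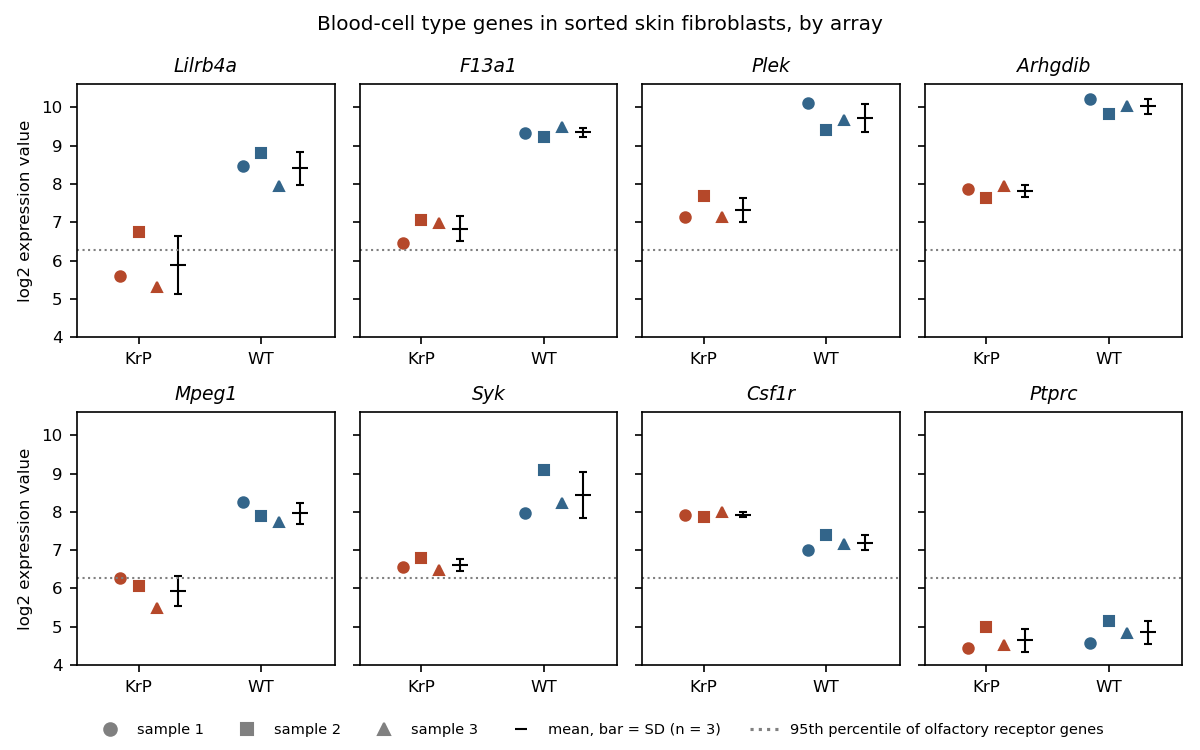
Log2 expression value of each of the 8 genes on every array, KrP samples left and WT samples right, with the mean and SD of 3 arrays and the 95th percentile of olfactory receptor genes (6.28) as a dotted line. For 6 genes all KrP points lie below all WT points, for Csf1r they lie above, and for Ptprc both groups overlap below the line.

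In the fit across all genes 7 of the 8 members passed at an adjusted p under 0.05, 6 lower and 1 higher, where 2.18% of all genes passed, 1.03% lower and 1.15% higher. With the replicate number as a block the count of members was also 7, where 8.35% of all genes passed, 3.02% lower and 5.33% higher. At an unadjusted p under 0.05 stood 16.0% of all genes. The arrays of the groups did not overlap for these 7 genes, as for 8.93% of all genes with KrP lower and 11.4% with KrP higher. These counts follow from how the genes were chosen, and nothing is read from them.

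Between same-numbered samples the differences kept their sign for each of the 8 genes. For Plek they were -2.97, -1.73 and -2.51 in pairs 1, 2 and 3, and for F13a1 -2.88, -2.17 and -2.49. Pair 2 gave the smallest drop for Lilrb4a (-2.06), F13a1, Plek and Mpeg1 (-1.83) and the smallest rise for Csf1r (0.47). For Syk it gave the largest drop (-2.32), against -1.39 in pair 1. Arhgdib had its smallest drop in pair 3 (-2.08) and Mpeg1 its largest there (-2.24), so the lower genes shared no single order over the pairs.

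**Figure D2:**
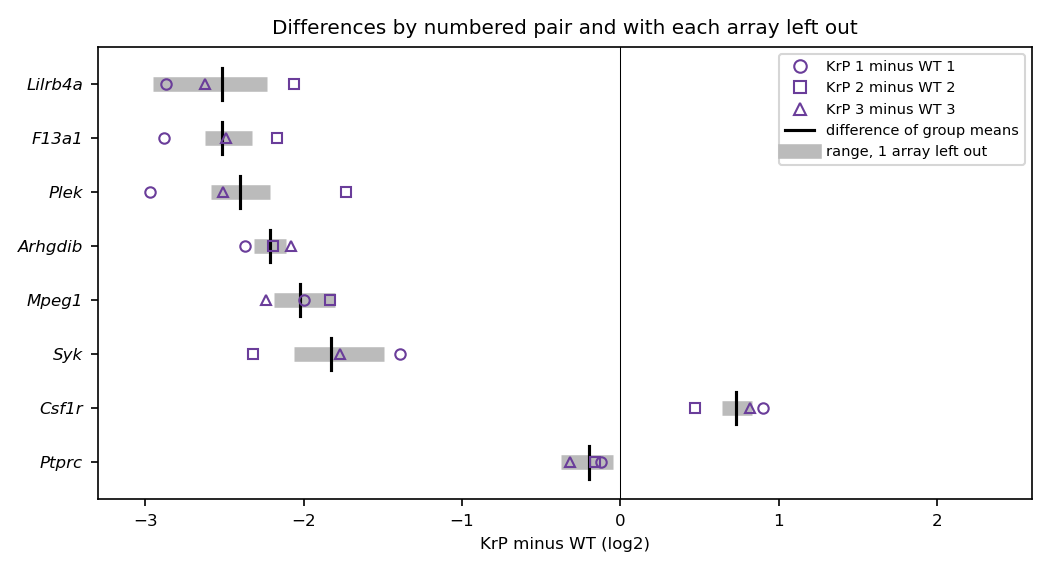
KrP minus WT on the log2 scale for each gene, as the difference of group means (black line), in each numbered pair (open symbols) and as the range when 1 of the 6 arrays is left out (grey bar). The 6 lower genes stay between -2.97 and -1.39, and Csf1r between 0.47 and 0.90.

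Leaving out each array in turn moved the log2 difference of Lilrb4a between -2.95 (without KrP 2) and -2.23 (without KrP 3). That of Syk ran from -2.06 to -1.49, the smaller value without WT 2. Arhgdib moved least among the lower genes, from -2.31 to -2.11.

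The profiles of the lower genes over the 6 arrays were compared by the root mean square difference of their mean-centred log2 values, where 0 is an identical profile. F13a1 and Plek were the closest pair at 0.262, and Plek and Arhgdib stood at 0.299. Lilrb4a lay 0.457 to 0.641 and Syk 0.491 to 0.615 from the other lower genes. These distances include the difference between groups by which the genes were chosen.

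The 3 genes most like each member were sought among 13403 other genes above the guide. Plek was closest to Gprc5a (0.121), an orphan receptor, then to Tmem204 (0.178) and the lipoxygenase Aloxe3 (0.187). F13a1 was closest to F830016B08Rik (0.214), Tmem204 (0.231) and Gprc5a (0.257). Arhgdib was closest to the adhesion protein Flrt3 (0.204), the thrombin receptor F2r (0.238) and F830016B08Rik (0.251), and Mpeg1 to Flrt3 (0.170), H2-Q5 (0.184) and the hormone gene Fgf23 (0.203). H2-Q5 has close relatives whose signal its probes can take. Lilrb4a was closest to Apold1 (0.230), Cemip (0.313) and Coch (0.344), and Syk to the calcium pump Atp2b4 (0.133), Cyp1b1 (0.247) and Pla2g7 (0.263). Csf1r was closest to Wnt10a (0.060), the matrix protein Ecm1 (0.078) and Gpx3 (0.079), which had log2 differences of 0.82, 0.83 and 0.75. These distances also include the difference between groups, so the search itself favours genes that share it. Ptprc lay below the guide and was not compared.

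No other gene of those shared by blood cells in general passed the test. Of 22 pan-leukocyte genes, 0 passed in either direction (limma, adjusted p under 0.05; 2 at an unadjusted p under 0.05, and 1 lower with the replicate block), and the median log2 difference was -0.10 beside 0.01 over all genes. Spi1, which encodes PU.1, had log2 values of 6.59, 6.99 and 6.85 in KrP samples and 6.69, 7.22 and 6.80 in WT samples (adjusted p = 0.855). Rac2, a small GTPase of blood cells, and Arhgap30 had log2 differences of -0.11 and -0.06. Cd53, chosen after its values were seen, was the list's farthest gene, at 5.32, 5.94 and 6.01 in KrP samples and 6.39, 6.87 and 6.69 in WT samples (adjusted p = 0.0751, or 0.00784 with the block). The summed linear signal of the list was 1542 to 1728 in KrP samples and 1689 to 2008 in WT samples, ranges that overlapped, with 10 of the 22 genes above the guide on average.

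No macrophage marker passed either. Of 28 measured, 0 were called (3 at an unadjusted p under 0.05; the block called 1, higher), with a median log2 difference of -0.04. The lysosomal protein Cd68 had 9.20, 9.57 and 9.25 in KrP samples and 9.12, 9.57 and 9.74 in WT samples. The lipopolysaccharide co-receptor Cd14 had a log2 difference of 0.55 (adjusted p = 0.724, or 0.0460 with the block), and the efferocytosis receptor Mertk of -0.41. Adgre1, which encodes the macrophage marker F4/80 and was chosen after its values were seen, lay between 4.95 and 5.43 on all 6 arrays, below the guide. The list's summed signal was 3029 to 4480 in KrP samples and 3154 to 3634 in WT samples, ranges that overlapped. Genes of high signal weigh most in this linear sum. Cd14 alone had log2 values of 10.91, 8.67 and 10.12 in KrP samples and 10.16, 8.43 and 9.46 in WT samples. The overlap therefore says little about the other genes of the list. On average 9 of the 28 genes were above the guide. In sorted bulk samples fewer cells of a type and less RNA per cell cannot be told apart.

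**Figure D3:**
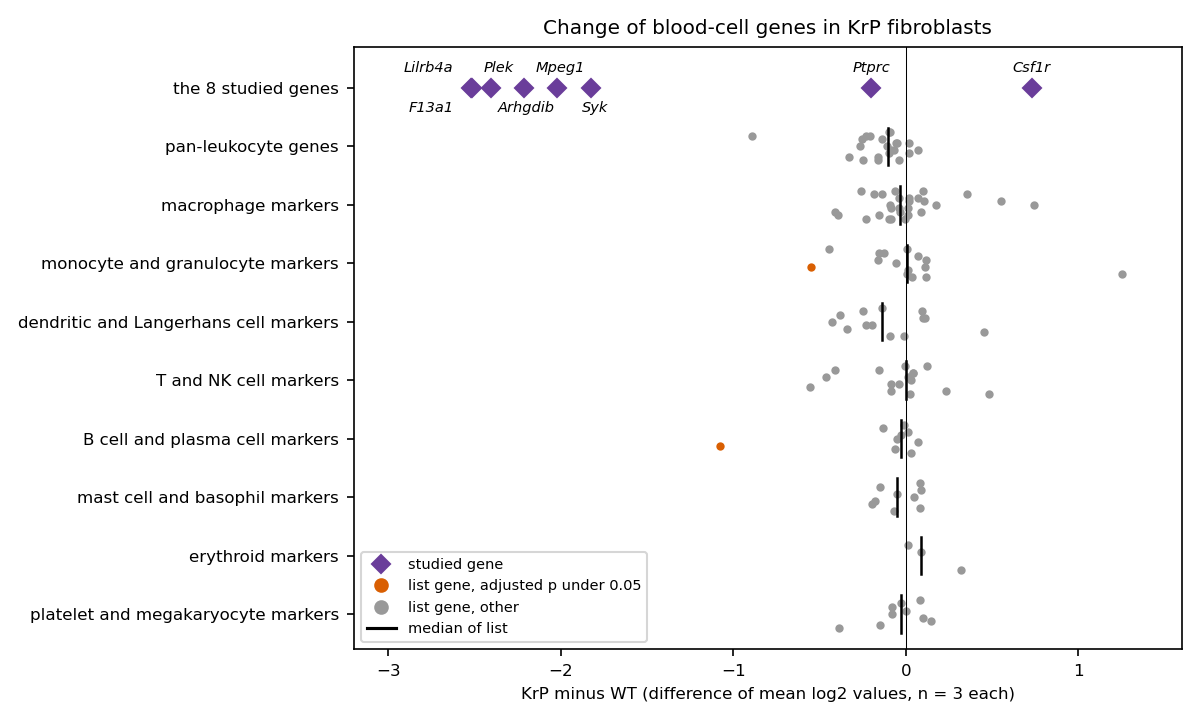
KrP minus WT (difference of mean log2 values, 3 arrays each) for the 8 genes and for every measured gene of 9 blood-cell lists, with list genes that passed the test in orange and the list median as a black line. The 6 lower genes, chosen for their differences in these data, lie at -1.83 or lower. Each list median lies between -0.14 and 0.09, with 44 of the 124 list genes above the guide on average. The distance between the 6 genes and the lists follows from that choice.

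Over all 9 blood-cell lists, 124 genes were measured, and 0 rose and 2 fell (1.61%, beside 2.18% of all genes). Only 44 of the 124 lay above the guide on average, and below it differences are compressed. The share called is therefore a weak guide to whether blood-cell genes changed. With the replicate block 3 rose and 4 fell (5.65%, beside 8.35%). Ebf1, a transcription factor of B cells that mesenchymal cells also use, fell 2.11-fold, to 10.32 ± 0.20 in KrP samples against 11.40 ± 0.21 in WT samples (SD, n = 3 each; adjusted p = 0.0119). Its call ended without KrP 3 or WT 3 (highest adjusted p = 0.0863). Fpr2, a formyl peptide receptor of neutrophils, had a log2 difference of -0.55 (adjusted p = 0.0287) at levels below the guide, and kept its call in 1 of the 6 fits that left out an array, the one without KrP 2. Ace, in the monocyte list, had a log2 difference of 1.25 (adjusted p = 0.0869, or 0.00653 with the block). None of 16 T and NK cell, 13 dendritic and Langerhans cell, 9 mast cell and basophil, 9 platelet and 3 erythroid genes passed, with 4, 2, 0, 0 and 0 at an unadjusted p under 0.05. In the same order 4, 7, 1, 3 and 2 of them lay above the guide on average. With the block 1 T cell and 1 dendritic cell gene passed. Summed signals did not overlap for 3 lists. The monocyte list had 1415 to 1782 in KrP samples and 1084 to 1281 in WT samples. The dendritic list had 1608 to 1699 and 1482 to 1600, and the B cell list 1582 to 1972 and 2802 to 3477. Ace, Cd209a and Ebf1 had the highest values of the monocyte, dendritic and B cell lists and weigh most in their sums. Cd209a had a log2 difference of 0.45 (adjusted p = 0.214, or 0.0445 with the block), while the median of the dendritic list was -0.14.

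The partners of the 8 genes were examined next, from lists chosen by function. Over these lists 141 genes were measured, of which 2 rose and 3 fell (3.55%, beside 2.18% of all genes), or 6 rose and 13 fell with the block (13.5%, beside 8.35%). Neither measured ligand of CSF1R rose. Csf1 had log2 values of 12.77, 13.25 and 13.28 in KrP samples and 12.82, 13.31 and 13.21 in WT samples (adjusted p = 0.982). Il34, the second ligand, fell 1.55-fold, at 7.58, 7.79 and 7.50 in KrP samples and 8.28, 8.31 and 8.19 in WT samples (adjusted p = 0.0452). The Il34 call held in 1 of the 6 fits that left out an array, the one without KrP 2. Of the 24 genes on that list, 0 rose and 1 fell (4.17%, beside 2.18% of all genes), or 0 and 4 with the block (16.7%, beside 8.35%). Csf2, chosen after its values were seen, differed by -1.64 ± 0.76 log2 units (SE), with an adjusted p of 0.343 and of 0.0307 in the blocked fit, and its ends were KrP 1 at 5.50 and WT 2 at 10.05.

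Among the enzymes that share substrates with CD45 or oppose it, 1 of 15 rose and 1 fell (13.3%, beside 2.18% of all genes). With the block 1 rose and 2 fell (20%, beside 8.35%). Ptprj, a receptor phosphatase known as CD148 that can replace CD45 on some substrates, rose 2.40-fold, at 10.84, 10.43 and 10.79 in KrP samples and 9.62, 9.23 and 9.42 in WT samples (adjusted p = 0.00760). Ptpn22, a phosphatase that restrains antigen receptor signalling, fell 2.26-fold, at 5.81, 5.92 and 6.10 in KrP samples and 7.51, 6.83 and 7.02 in WT samples (adjusted p = 0.0188). Its KrP values lay below the guide. The call of Ptprj ended without KrP 3 or WT 3 (highest adjusted p = 0.0671), and that of Ptpn22 without KrP 1, KrP 3 or WT 3 (0.0829). Csk, chosen after its values were seen, and Jak1 had log2 differences of 0.23 and 0.10.

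Syk's own pathway held no called gene. Of 29 ITAM signalling partners 0 passed (8 at an unadjusted p under 0.05, beside 16.0% of all genes). With the block 2 rose and 4 fell (20.7%, beside 8.35%). The adaptor chains Fcer1g and Tyrobp, chosen after their values were seen, had log2 differences of -0.22 and -0.09 and lay between 6.02 and 6.72. These values are near the guide, where differences are compressed. Fcer1g lay above it on 2 KrP and 3 WT arrays, and Tyrobp on 0 and 1. Sh3bp2, also chosen after its values were seen and encoding an adaptor that binds SYK, differed by -0.72 ± 0.19 log2 units (SE), with an adjusted p of 0.102 and of 0.0153 in the blocked fit. The integrin Itgb3, the adaptor Bcl10 and the ubiquitin ligase Cblb had log2 differences of -0.23, -0.23 and -0.39 (the last with an adjusted p of 0.167, or 0.0406 with the block).

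Relatives of Lilrb4a and their effectors gave 0 calls among 18 genes (2 at an unadjusted p under 0.05; the block called 1, higher). Pirb, the paired immunoglobulin-like receptor, had 5.82, 5.77 and 5.21 in KrP samples and 5.69, 5.94 and 5.30 in WT samples, below the guide. Fn1, the matrix protein fibronectin, had a log2 difference of 0.46 (adjusted p = 0.154, or 0.0471 with the block). Ptpn6, the phosphatase SHP-1 that inhibitory receptors recruit, had a log2 difference of 0.02, and Ptpn11, its relative SHP-2, of 0.01. Ptpn6 was near the guide, above it on 1 array of each group.

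In the list of transglutaminases and the fibrin network, 1 member of 18 was called higher and 1 lower (11.1%, beside 2.18% of all genes). In the blocked fit 2 were higher and 1 lower (16.7%, beside 8.35%). F2r, the thrombin receptor, fell 3.52-fold, at 10.16, 10.29 and 10.28 in KrP samples and 12.13, 11.90 and 12.14 in WT samples (adjusted p = 0.00116), and its call held whichever of the 6 arrays was left out. Tgm1, the transglutaminase of the epidermal cornified envelope, rose 2.33-fold, at 9.60, 8.62 and 8.95 in KrP samples and 8.00, 7.84 and 7.67 in WT samples (adjusted p = 0.0451). That call ended without KrP 3, WT 1, WT 2 or WT 3 (highest adjusted p = 0.206), and also with quantile normalisation (0.0565) and median centring (0.0505). F13b, the carrier subunit of factor XIII, lay between 3.85 and 4.23 on all arrays, below the guide, and Tgm2, the widespread tissue transglutaminase, had a log2 difference of 0.35 (adjusted p = 0.650).

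**Figure D4:**
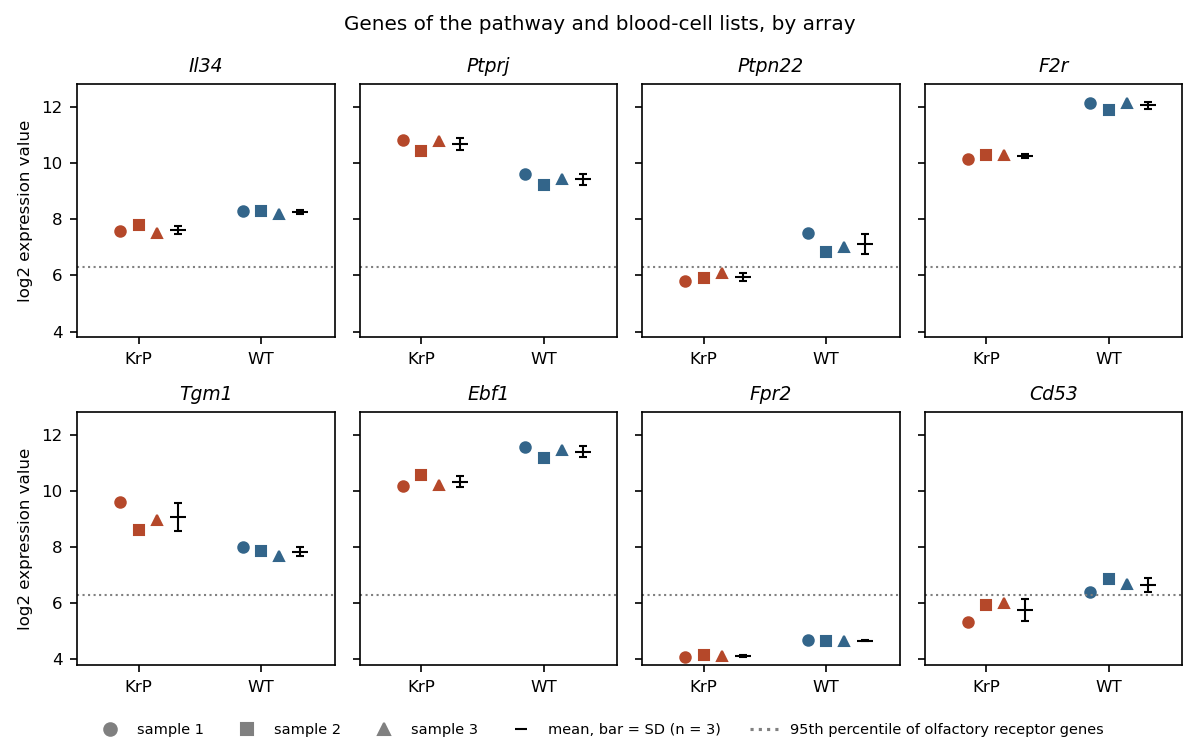
Log2 expression value on every array, KrP left and WT right, for the 7 genes of the blood-cell and pathway lists that passed the test and for Cd53, with mean and SD of 3 arrays and the background guide as a dotted line. Ptprj and Tgm1 are higher in KrP samples, the other 6 genes lower, and the groups overlap in none of the 8 panels. This follows from how the genes were picked. Over all genes the groups do not overlap for 8.93% with KrP lower and 11.4% with KrP higher.

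The families of Plek and Mpeg1 held no called gene. Of 13 genes for pleckstrin relatives and protein kinase C 0 passed (2 at an unadjusted p under 0.05; the block called 1, higher). Plek2, the second pleckstrin, had 6.17, 6.00 and 5.96 in KrP samples and 5.95, 6.36 and 6.49 in WT samples (adjusted p = 0.541). Of 11 genes of the perforin domain family 0 passed (1 at an unadjusted p under 0.05; 0 with the block), and Prf1, the perforin of killer cells, had a log2 difference of 0.04.

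Markers of other cells that the sort could hold, fibroblast markers included, were set beside these results. Over these lists 86 genes were measured, of which 2 rose and 3 fell (5.81%, beside 2.18% of all genes). With the block 9 rose and 5 fell (16.3%, beside 8.35%). Of 17 endothelial genes 2 were called higher and 2 lower, or 23.5%. In the blocked fit 2 were higher and 4 lower, or 35.3%. Sox18 rose 3.88-fold (adjusted p = 0.00551) and the VEGF receptor Flt1 2.10-fold (adjusted p = 0.0250), whereas Cldn5 (adjusted p = 0.0130) and Tek (adjusted p = 0.0386) had log2 differences of -0.95 and -0.76. Kdr, the main VEGF receptor of endothelium, had the lowest log2 difference of the list at -1.41, with 7.76, 6.84 and 7.31 in KrP samples and 9.28, 8.19 and 8.67 in WT samples (adjusted p = 0.0658, or 0.00158 with the block). The Tek call ended whichever array was left out, that of Cldn5 without KrP 3 or WT 3, and that of Flt1 without KrP 3 or any WT array. The summed endothelial signal was 2560 to 2709 in KrP samples and 2154 to 2472 in WT samples, ranges that did not overlap. Genes of high signal weigh most in this sum, and Flt1 had the list's highest KrP values (9.24, 9.92 and 9.50). The list's median log2 difference was -0.05. Its groups did not overlap for 6 genes with KrP lower and 2 with KrP higher (beside 8.93% and 11.4% of all genes). The sum therefore does not speak for the list as a whole. Of 16 keratinocyte genes 0 passed (1 at an unadjusted p under 0.05; 0 with the block), with summed signals of 1491 to 1797 in KrP samples and of 1711, 3030 and 1967 in WT samples, the highest in WT 2. Of 12 pericyte and smooth muscle genes, Cspg4 fell 2.14-fold (adjusted p = 0.0298; 1 rose and 1 fell with the block), and its call ended without KrP 3 and without each WT array. Of 19 fibroblast markers 0 passed (9 at an unadjusted p under 0.05; the block called 6, all higher), and their median log2 difference was 0.41. Of 11 Schwann cell and melanocyte genes and of 12 skeletal muscle and adipocyte genes 0 passed (2 and 1 at an unadjusted p under 0.05; 0 with the block). The part of any of these cells in the differences of the 8 genes was not tested.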

How the data were processed

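The deposited table holds log2 expression values made by the authors, 1 per probe set and array. The submitters' processing notes name Partek and RMA, with no version or role, and per the labels' protocols 100 ng of total RNA was labelled with biotin. A genome build is not given in the sources used here. Names of probe sets came from the platform annotation, updated by gene ID from RefSeq (GRCm38.p6): of 34390 probe sets, 23521 had 1 gene, 1814 several and 9055 none, and 23328 matched RefSeq. For 1082 genes with several, the highest mean was kept, leaving 22180 genes. No further normalisation or filter was applied.

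KrP minus WT was fitted with limma 3.58.1 in R 4.3.3 (eBayes with trend, 3 arrays per group, no block), two-sided, with Benjamini-Hochberg adjustment over all genes at 0.05. The fit was tested on simulated data. Members and lists were chosen with earlier results of these data known. Text names the members, up to 3 called genes per list and direction, up to 3 uncalled genes of highest mean per list and the 3 most similar genes per member. The rule also covers every gene of the family lists, most of which stand in the counts alone: Pirb, Ptpn6, Plek2, F13b and Tgm2 were picked from these for their roles with their values known. Others are said to be chosen after their values were seen. One of the partner lists enters the combined counts but is not reported on its own here. Same-numbered samples deviated together from their group means (correlations of 0.414, 0.350 and 0.120 across genes). Between samples of different numbers the correlations were -0.385 to 0.067. Each same-numbered value lay above 0.1, which was the criterion for a pairing, but pair 3 was close to it. The pairing comes from the data, not a label, and is weakly founded for sample 3. The main fit leaves the pairing out, and the fit with the number as a block, an alternative, is given beside the calls it changes. Further alternatives concerned the variance prior, array weights, filters, normalisation, averaged probe sets and left-out samples. Arrays have no read depth, and their number limits precision. Figures used matplotlib 3.10.9.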

Additional observations from a re-analysis of the deposited data

How the results depend on the processing

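The differences of the 8 genes kept their direction under every alternative run, although Ptprc was not among the genes kept by either filter. The one move beyond the spread of a gene's arrays was Plek at -2.74 without both samples numbered 2. Counts of called genes moved more. Over all genes 483 passed, against 1851 with the replicate block, 6410 with array weights, 890 without both samples numbered 2 and 0 without both numbered 3. Over the blood-cell lists 2 passed, against 7 with the block, 23 with array weights, 1 with the lower 25% and 1 with the lower 50% of genes dropped (86 and 18 list genes left), 4 without both samples numbered 2 and 0 without both numbered 3. Over the pathway lists 5 passed, against 19 with the block, 55 with array weights and 0 without both samples numbered 3. With 1 sample left out the counts ran from 85 (without KrP 3) to 1116 (without KrP 2) over all genes, from 0 to 5 over the blood-cell lists and from 1 to 9 over the pathway lists. The filtered fits tested fewer genes, and the cause of the other moves, which went both ways when samples were left out, was not tested. Quantile normalisation gave 207 higher and 242 lower genes, against 255 and 228. Of the 12 called genes of the lists, F2r and Sox18 kept their calls whichever 1 sample was left out, none changed direction, and no call was lost with the block. Values near or below the background guide, as for Ptprc and for Lilrb4a and Mpeg1 in KrP samples, limit how well a fold is known.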

Other observations

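A further probe set, annotated to both Lilrb4a and its neighbour in the family, was not used for Lilrb4a because it cannot be assigned to 1 gene. It had log2 values of 4.44, 4.43 and 4.53 in KrP samples and 5.15, 5.15 and 4.76 in WT samples. Both groups lay below the background guide of 6.28 and did not overlap, with a difference of -0.55, smaller than the -2.52 of the probe set of Lilrb4a alone.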
